A study of Rattus norvegicus with 6 samples.

Results

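The cell cycle genes described here are 48 genes whose products act in S phase or in mitosis, taken by gene name from a count table of 30562 rat genes in intervertebral disc libraries. All 48 names were found in the table. Dividing cells copy their DNA in S phase, when the licensing helicase, the replication fork and the enzymes that supply deoxynucleotides are made, and they make cyclin B, the mitotic kinases and the spindle proteins shortly before division. Resting cells hold little of these RNAs, so the genes are widely used as a measure of how many cells of a tissue are in cycle. Mature disc cells divide rarely, while red cell, granulocyte and B cell precursors of bone marrow divide often.

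The study injected punctured tail discs of rats with a particle against disc degeneration and measured RNA by bulk sequencing in 6 libraries, 3 in each of 2 groups. Per the methods, the Co6–Co7 disc of male Sprague–Dawley rats aged 12 weeks was punctured with an 18 G needle, and injections of 10 μL into the disc started 24 h later. The 3 libraries labelled AF-PTK@LEV@SPP1 come from rats given a liposome fused with bacterial outer membrane vesicles, which carries an annulus-binding peptide on a linker cut by reactive oxygen and an siRNA made against mouse Spp1, at 1 mg/kg of siRNA. The 3 libraries labelled Control come from punctured rats given PBS. Both groups are labelled wild type and carry the same injury, and no library of an unpunctured disc was used. The labels differ from the methods: they state 14 days of treatment where the methods follow the rats for 8 weeks, a control without any treatment, and macrophages sorted by F4/80 and CD11b from mice. The columns of the table name the 2 groups only in part, and the PBS group was matched to its columns through the name of the degeneration model. Below, the groups are called PBS and vesicle, and values in 3 libraries stand in the order of replicates 1, 2 and 3.

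Library totals were 17942989, 16565291 and 17489851 counts for PBS and 17074981, 15560728 and 17855184 counts for vesicle. PBS replicates 2 and 3 differed little beyond sampling noise: their variance over genes was 1.33 times that of counting, against 51.3 to 107 times for every remaining pair of libraries that share a group. The methods state 3 separate animals in each group. The 2 libraries were counted as 1 sample, with summed counts, which leaves 5 distinct samples, 2 PBS and 3 vesicle. Spp1, the siRNA's target, read 8263, 4469 and 4473 CPM in PBS and 7944, 6775 and 8324 CPM in vesicle, where CPM are counts scaled to library size by TMM. Vesicle libraries lay above PBS replicates 2 and 3 and around PBS replicate 1, so the groups overlapped (log2 fold change 0.31, SE 0.37, edgeR adjusted p = 0.628), and the RNA of the target gives no check of the group labels. The labelled sort was not seen in the RNA: Adgre1, which encodes F4/80, read 43.6, 19.8 and 17.6 CPM in PBS and 15.1, 19.6 and 19.3 CPM in vesicle, and Itgam, which encodes CD11b, 102, 71.9 and 70.5 CPM and 15.02, 58.4 and 63.8 CPM. Collagen genes of the disc stood far above them, with Col1a1, the fibrous collagen of the annulus, at 32473, 45317 and 45625 CPM in PBS and 63198, 45106 and 50428 CPM in vesicle, so the libraries are treated as whole disc tissue. In such bulk samples, fewer cells in cycle and less RNA per cell cannot be told apart.

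No cell cycle gene passed the comparison of vesicle with PBS, and the genes varied between libraries of the same group instead. Of the 48 genes, 47 had enough counts to be tested, and edgeR called 0 higher and 0 lower at an adjusted p under 0.05, where it called 3.7% of all 15537 genes tested (175 higher and 400 lower). At an unadjusted p under 0.05, edgeR also had 0 of the 47, against 25.4% of all genes tested. DESeq2 and limma-voom called 0 of them too, with 1 and 0 at an unadjusted p under 0.05, against 15.1% and 2.92% of all genes called by these tools. With all 6 libraries kept separate, edgeR again called 0, with 1 at an unadjusted p under 0.05, against 18.1% of all genes called. The fitted log2 fold changes of the 47 genes ran from -0.54 to 1.63, and 43 were above 0, a number that did not move with either other scaling. Their median was 0.45, against 0.046 over all genes tested. The 95% intervals reached a median of 1.42 log2 units to each side of the estimate, so these samples leave the size of a group difference wide.

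Summed over the 48 genes, the level was 1106, 783 and 774 CPM in PBS and 569.5, 1951 and 1412 CPM in vesicle. Vesicle replicate 1 was the lowest of all libraries and vesicle replicate 2 the highest, so the PBS libraries lay between libraries of the other group. Of the 47 genes, 43 were highest in vesicle replicate 2 and 41 lowest in vesicle replicate 1, against 21.00% and 21.98% of all genes tested. The full order of levels, with vesicle 1 lowest, then PBS 2 and 3, PBS 1, vesicle 3 and vesicle 2, was shared by 35 of the 47 genes, and by 2.22% of all genes. Within PBS, 46 of 47 were higher in replicate 1 than in replicates 2 and 3, against 51.4% of all genes. The groups did not overlap for 1 of the 47 genes (2.13%), Melk, against 45.9% of all genes. The standard deviation of log2 CPM among the vesicle libraries had a median of 0.99 over the cell cycle genes and of 0.22 over all genes.

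**Figure D1:**
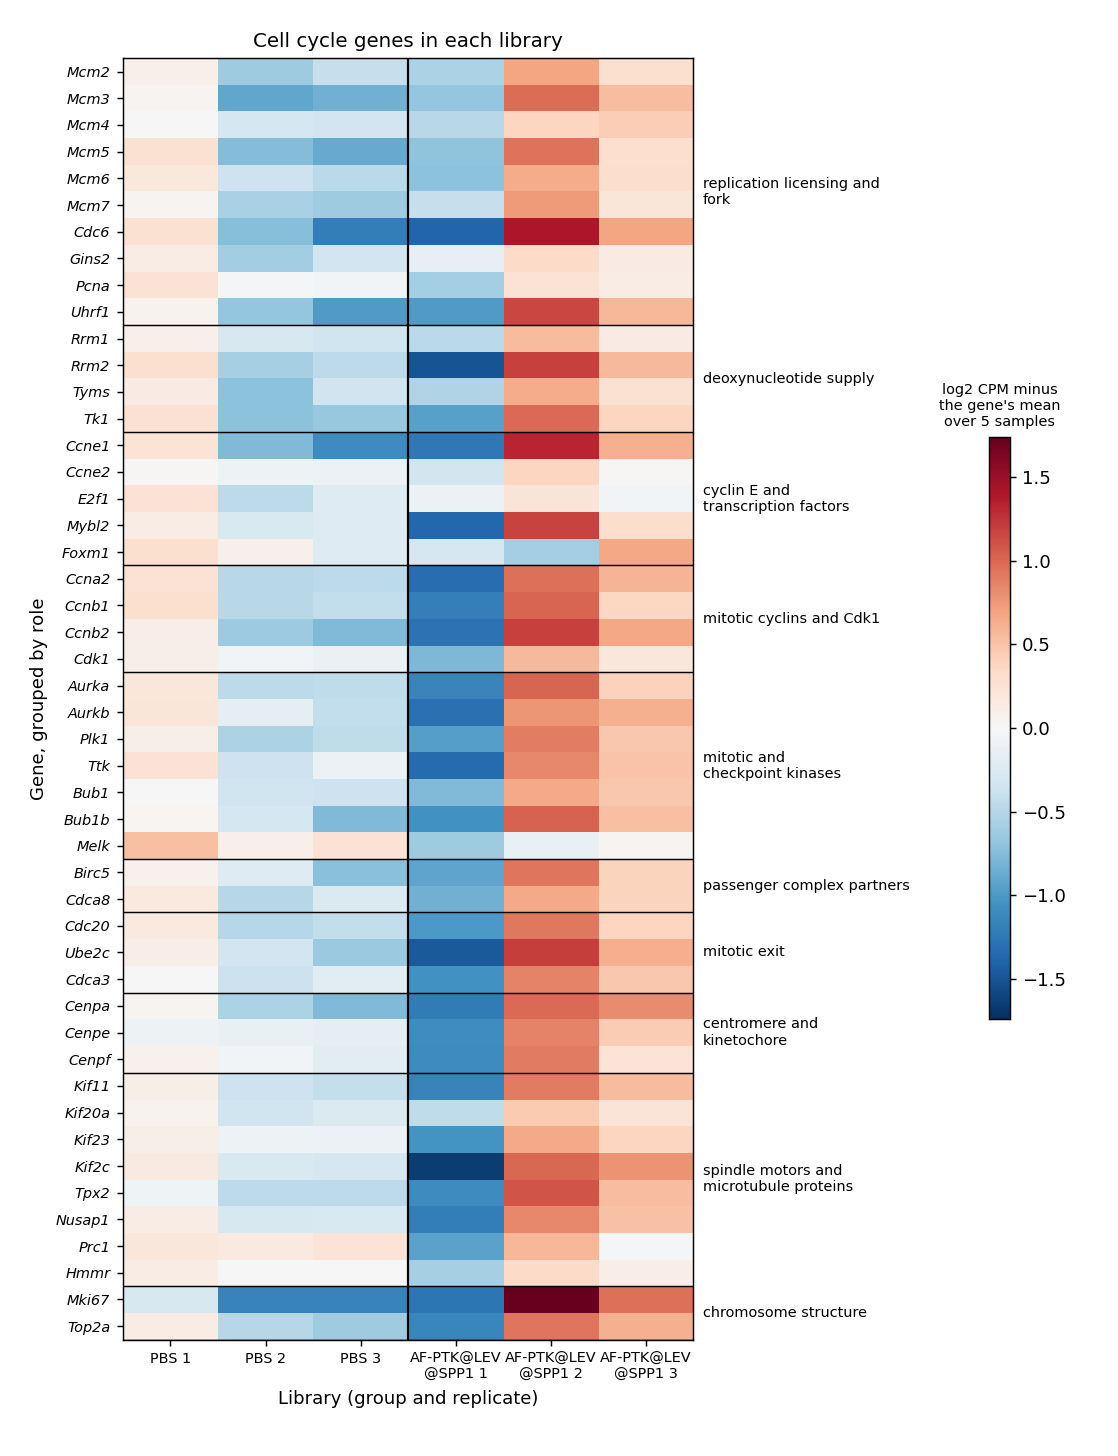
Level of each of the 48 genes (rows, grouped by role) in the 6 libraries (columns), as log2 CPM minus the gene's mean over the 5 distinct samples; red is above that mean and blue below. Vesicle replicate 2 is red and vesicle replicate 1 blue for nearly all rows, with 43 of 47 tested genes highest in the former and 41 lowest in the latter.

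Mki67 encodes Ki-67, a protein that coats mitotic chromosomes and is the most used marker of cells in cycle. It read 87.3, 47.3 and 47.2 CPM in PBS and 44.4, 355 and 206 CPM in vesicle, on 1670, 726 and 764 counts and on 765, 5997 and 3682 counts. Vesicle replicate 1 lay below every PBS library and vesicle replicates 2 and 3 above them all, so the groups overlapped. The means were 67.3 ± 28.3 CPM (SD, n = 2) and 202 ± 155 CPM (SD, n = 3). Its fitted difference was the highest of the 47 (log2 fold change 1.63, SE 0.87, edgeR adjusted p = 0.303; 95% interval -0.58 to 3.84). Left-out libraries moved it between 0.94, without vesicle replicate 2, and 2.12, without PBS replicate 1. A two-sided exact permutation test over the 5 samples gave p = 0.5, where the smallest value that 3 against 2 samples can give is 0.1. Top2a, the topoisomerase that untangles replicated DNA, read 76.6, 49.7 and 45.3 CPM in PBS and 31.7, 133 and 108 CPM in vesicle, in the same order of libraries. It did not pass the test either (log2 fold change 0.59, SE 0.62, edgeR adjusted p = 0.584).

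Entry into S phase is driven by cyclin E and by E2F factors, and later waves of transcription by B-Myb and FoxM1. Ccne1, the first of the cyclin E genes, read 6.69, 3.26 and 2.60 CPM in PBS and 2.32, 14.3 and 8.75 CPM in vesicle (log2 fold change 0.87, SE 0.80, edgeR adjusted p = 0.532). Ccne2, the other cyclin E gene, held a narrow range of 23.7, 22.03 and 21.9 CPM and 18.7, 30.5 and 23.7 CPM (log2 fold change 0.13, SE 0.22, edgeR adjusted p = 0.752). Mybl2, which encodes B-Myb and activates mitotic genes, followed the order of Mki67, with 13.1, 9.97 and 10.2 CPM in PBS and 4.58, 27.1 and 14.7 CPM in vesicle and a log2 fold change of 0.45. E2f1, the founding E2F activator of S-phase genes, stood apart: its highest library was PBS replicate 1 at 6.79 CPM, its vesicle libraries read 5.28, 6.63 and 5.49 CPM, and vesicle replicate 2 was only 1.26 times replicate 1, the lowest ratio of the 47 genes. Foxm1, the forkhead activator of mitotic genes, was the 1 gene of the 48 that failed the filter, with 6, 4 and 3 counts in PBS and 3, 2 and 8 in vesicle. What size of difference in Foxm1 could be detected at such low counts was not tested. The fits by DESeq2 and without the filter included all 48 genes and called 0 of them.

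The licensing genes load and fire the replicative helicase. Mcm2, a subunit of that helicase, read 27.9, 17.01 and 19.8 CPM in PBS and 17.8, 41.9 and 31.7 CPM in vesicle (log2 fold change 0.44, SE 0.40, edgeR adjusted p = 0.526). Mcm3, another subunit, read 20.5, 10.6 and 11.1 CPM and 12.5, 39.2 and 29.04 CPM (log2 fold change 0.82, SE 0.54, edgeR adjusted p = 0.387), the lowest unadjusted p of the replication genes. Here vesicle replicate 1 lay slightly above PBS replicates 2 and 3 and below PBS replicate 1. The remaining helicase subunits had log2 fold changes of Mcm4 (0.35), Mcm5 (0.55), Mcm6 (0.31) and Mcm7 (0.53). Cdc6, which loads the helicase onto origins, differed most between vesicle libraries among these genes, with 1.62, 11.9 and 7.23 CPM in the vesicle libraries and 5.33, 2.61 and 1.85 CPM in PBS, and a log2 fold change of 0.92. Gins2, a subunit of the active helicase, and Uhrf1, which carries DNA methylation over to the new strand, had 0.31 and 0.86 on the same log2 scale. Pcna, the sliding clamp of the polymerases, differed from the helicase genes: PBS read 82.2, 67.5 and 66.6 CPM and vesicle 45.9, 82.1 and 75.9 CPM, so that PBS replicate 1 and vesicle replicate 2 were level. Its fitted difference was -0.096 (SE 0.27, edgeR adjusted p = 0.851), below 0 with all libraries and above 0 without vesicle replicate 1 (0.089) or without PBS replicate 1 (0.046).

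The deoxynucleotide genes make the building blocks for DNA. Rrm1, the large subunit of ribonucleotide reductase, read 78.4, 60.4 and 57.6 CPM in PBS and 52.9, 108 and 81.5 CPM in vesicle (log2 fold change 0.27, SE 0.32, edgeR adjusted p = 0.629). Rrm2, the small subunit that is made in S phase, varied far more between the same libraries, with 24.4, 13.4 and 14.6 CPM and 7.02, 45.9 and 29.7 CPM. Vesicle replicate 1 held the lowest Rrm2 level of all libraries, and the fitted log2 fold change was 0.56. Tyms, the thymidylate synthase, read 31.8, 17.6 and 22.6 CPM in PBS and 20.1, 45.2 and 34.7 CPM in vesicle (log2 fold change 0.40, SE 0.39, edgeR adjusted p = 0.553). Tk1, the thymidine kinase of dividing cells, had a log2 fold change of 0.52 and ranged from 12.5 CPM in vesicle replicate 1 to 48.2 CPM in vesicle replicate 2.

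Cdk1 with cyclins A and B starts mitosis. Cdk1, the kinase itself, read 19.5, 17.5 and 16.8 CPM in PBS and 10.6, 27.00 and 20.8 CPM in vesicle, with vesicle replicate 1 lowest and replicate 2 highest. Its fitted difference was small beside its error (log2 fold change 0.12, SE 0.39, edgeR adjusted p = 0.869; 95% interval -0.88 to 1.12). Ccna2, the cyclin of S phase and early mitosis, read 28.5, 17.1 and 17.4 CPM and 9.39, 46.3 and 35.9 CPM (log2 fold change 0.46, SE 0.67, edgeR adjusted p = 0.699). Ccnb1, the main mitotic cyclin, read 24.04, 14.1 and 14.7 CPM in PBS and 8.64, 40.03 and 25.3 CPM in vesicle (log2 fold change 0.40, SE 0.64, edgeR adjusted p = 0.726). Without vesicle replicate 2, the fitted values of Cdk1 and Ccnb1 were below 0, at -0.18 and -0.13. Ccnb2, the second B cyclin, read 18.2, 10.8 and 9.77 CPM and 6.84, 38.6 and 26.9 CPM (log2 fold change 0.80, SE 0.72, edgeR adjusted p = 0.524), again with PBS between the vesicle libraries. Without vesicle replicate 2 the fitted values of Ccna2 and Ccnb2 were 0.029 and 0.29.

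Among the kinases of mitosis and its checkpoint, Bub1, a kinase that holds back separation until all chromosomes are attached, read 22.3, 17.7 and 17.5 CPM in PBS and 13.2, 35.6 and 31.3 CPM in vesicle (log2 fold change 0.46, SE 0.44, edgeR adjusted p = 0.545). Its partner Bub1b, the Aurora kinases Aurka of the spindle poles and Aurkb of the centromere, the polo kinase Plk1 and the checkpoint kinase Ttk had log2 fold changes of Bub1b (0.67), Aurka (0.48), Aurkb (0.35), Plk1 (0.53) and Ttk (0.27). In all 5, vesicle replicate 1 was lowest, then PBS replicates 2 and 3, PBS replicate 1, vesicle replicate 3 and vesicle replicate 2. Melk, a kinase of dividing and progenitor cells, had another order, with 5.75, 4.24 and 4.76 CPM in PBS and 2.55, 3.61 and 4.09 CPM in vesicle. All vesicle libraries lay below all PBS libraries, on low counts, and the difference did not pass the test (log2 fold change -0.54, SE 0.29, edgeR adjusted p = 0.303; exact permutation p = 0.2). Birc5, which encodes survivin and guides Aurora B, read 5.17, 4.17 and 2.91 CPM in PBS and 2.55, 9.48 and 6.45 CPM in vesicle (log2 fold change 0.54, SE 0.57, edgeR adjusted p = 0.584). Cdca8, which encodes borealin of the same complex, read 10.7, 6.71 and 7.91 CPM and 5.28, 14.98 and 12.4 CPM (log2 fold change 0.32, SE 0.47, edgeR adjusted p = 0.705).

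Centromere genes mark and attach the chromosomes. Cenpf, a kinetochore protein of late G2, read 30.7, 28.3 and 25.5 CPM in PBS and 13.6, 54.5 and 34.4 CPM in vesicle (log2 fold change 0.28, SE 0.55, edgeR adjusted p = 0.776). Without vesicle replicate 2 its fitted value was -0.22. Cenpa, the histone H3 variant of centromeres, read 9.93, 6.52 and 5.56 CPM and 4.06, 19.1 and 17.1 CPM (log2 fold change 0.79, SE 0.68, edgeR adjusted p = 0.503). Cenpe, a kinesin that moves chromosomes to the spindle equator, had a log2 fold change of 0.44, and PBS replicates 1 to 3 were close together at 20.7, 20.1 and 19.7 CPM.

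Spindle genes build and cross-link microtubules. Tpx2, which activates Aurora A on the spindle, read 23.6, 18.2 and 18.2 CPM in PBS and 11.7, 53.2 and 36.1 CPM in vesicle (log2 fold change 0.73, SE 0.62, edgeR adjusted p = 0.497). Prc1, which bundles microtubules at the midzone, was level across PBS at 39.7, 39.1 and 40.6 CPM, and read 18.1, 51.8 and 34.03 CPM in vesicle (log2 fold change -0.16, SE 0.42, edgeR adjusted p = 0.837). Vesicle replicates 1 and 3 were below PBS and replicate 2 above it, and the fitted value turned to 0.11 without vesicle replicate 1. Hmmr, a hyaluronan receptor that also acts at the spindle poles, had a log2 fold change of -0.024. The kinesins Kif11, which pushes the poles apart, Kif20a and Kif23, which act in cytokinesis, and Kif2c, which takes microtubules apart, had Kif11 (0.50), Kif20a (0.27), Kif23 (0.20) and Kif2c (0.52), and Nusap1, a microtubule bundler, 0.38. Kif2c read 2.09 CPM in vesicle replicate 1 and 13.7 CPM in replicate 2. Exit from mitosis needs the anaphase-promoting complex: its activator Cdc20 read 13.4, 8.34 and 8.78 CPM in PBS and 5.86, 22.5 and 15.3 CPM in vesicle (log2 fold change 0.45, SE 0.57, edgeR adjusted p = 0.655). Ube2c, the ubiquitin-conjugating enzyme of that complex, read 7.11, 5.21 and 4.14 CPM and 2.32, 15.3 and 10.3 CPM (log2 fold change 0.70, SE 0.76, edgeR adjusted p = 0.596). Cdca3, which triggers entry into mitosis by degrading the Wee1 kinase, had a log2 fold change of 0.47. Over all 48 genes, the exact permutation p ran from 0.2 to 1.

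**Figure D2:**
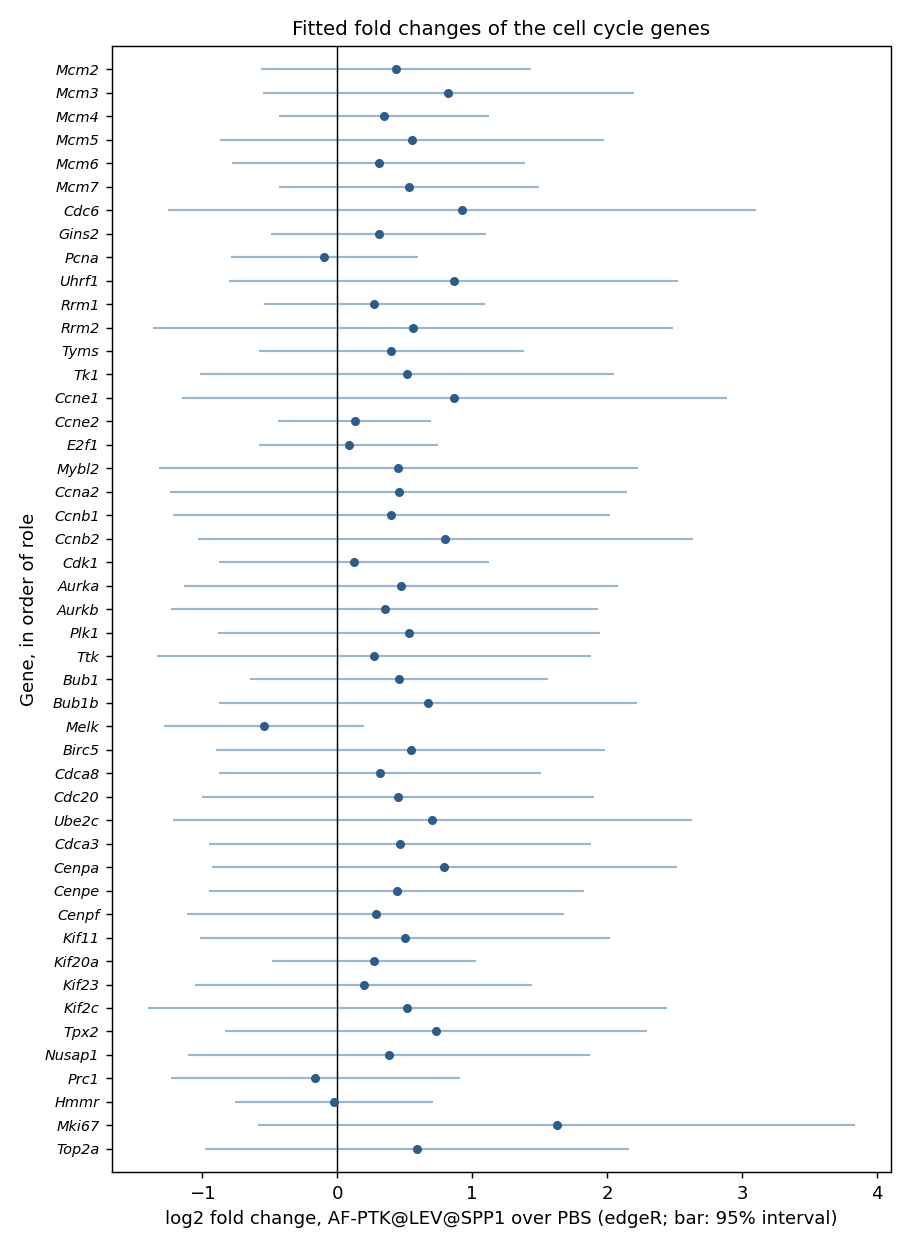
Fitted log2 fold change of vesicle over PBS (horizontal axis) for the 47 tested genes in order of role (vertical axis), with points for the edgeR estimate over 5 distinct samples and bars for its 95% interval. Every bar crosses 0, from Melk at -0.54 to Mki67 at 1.63.

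The distance between vesicle libraries is given here for sets of roles. Vesicle replicate 2 exceeded replicate 1 by a median log2 difference of 1.99 over the 27 genes of the mitotic cyclins, kinases, passenger complex, exit, centromere and spindle. Over the 14 replication and nucleotide genes that difference was 1.30. The roles in neither set had 2.53 over the 2 chromosome structure genes and 1.62 over the 4 tested cyclin E and transcription factor genes. In linear terms the ratio of replicate 2 to replicate 1 had a median of 3.86 over the 47 genes and ran from 1.26 for E2f1 to 8.01 for Mki67. Vesicle replicate 3 stood at a median of 2.68 times replicate 1. PBS replicate 1 stood at a median of 1.47 times the mean of replicates 2 and 3, from 0.996 for Prc1 to 2.39 for Cdc6. Differences between single libraries or between sets of roles were not tested, and the split into 2 sets of roles was made after the values were seen.

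The comparison was repeated without each library in turn. Without vesicle replicate 1, edgeR still called 0 of 47 genes, but 21 (44.7%) had an unadjusted p under 0.05, all of them higher, against 26.02% of all genes in that fit. As that library was the lowest for 41 of the 47 genes, leaving it out raises their vesicle mean by construction, so this count is no support for a group difference. The lowest edgeR adjusted p was then 0.0917, for Mki67, and over all alternatives the lowest adjusted p of any of these genes ran from 0.0917 to 0.401. The median log2 fold change was then 0.80. Without vesicle replicate 2 the median was 0.065, with 32 of 47 genes above 0, and without PBS replicate 1 it was 0.75. Calls over all genes tested moved as well, from 575 to 113 without vesicle replicate 1, to 0 without replicate 2, to 0 without replicate 3 and to 280 without PBS replicate 1.

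Other genes of the cell cycle were taken from 4 further lists. Of 41 entries for 40 other replication and S-phase genes, with Cdc45 under 2 identifiers, edgeR called 0 higher and 0 lower, with 0 at an unadjusted p under 0.05, 0 called by DESeq2 and 0 by limma-voom, and their median log2 fold change was 0.37. Of 51 other mitotic genes, edgeR called 0 and 0, with 3 at an unadjusted p under 0.05, 2 called by DESeq2 and 0 by limma-voom, and a median of 0.42. The 3 lowest p belonged to Cdc25b, the phosphatase that switches on Cdk1 (25.2, 20.3 and 21.3 CPM in PBS and 39.3, 149.9 and 89.5 CPM in vesicle, log2 fold change 2.05, SE 0.58, edgeR adjusted p = 0.115), Cit, the citron kinase of cytokinesis (log2 fold change 1.21, SE 0.29, edgeR adjusted p = 0.0853), and Anln, the anillin of the cleavage furrow (log2 fold change -0.45, SE 0.15, edgeR adjusted p = 0.156). In these lists, 40 of 51 mitotic and 33 of 41 replication entries were highest in vesicle replicate 2 and lowest in replicate 1 of that group, where 45 of the 47 described genes and 22.8% of all genes were; differences between the lists were not tested. The genes with the highest mean CPM over the 6 libraries in the replication, mitotic and brake lists, Rpa1 of the single-strand binding complex, Smc4 of condensin and Btg1, an antiproliferative factor, had log2 fold changes of 0.40, 0.34 and -0.24 and did not pass in edgeR. Over the 5 distinct samples Hmgb2, a chromatin protein, has a higher mean than Smc4. Of 13 genes of G1 entry, edgeR called 0 higher and 1 lower, Cdk4, the kinase of cyclin D, at 79.6, 74.04 and 70.7 CPM in PBS and 48.1, 46.3 and 50.02 CPM in vesicle (log2 fold change -0.62, SE 0.10, edgeR adjusted p = 0.0443). Ccnd2, a cyclin D gene, read 145, 146 and 143 CPM and 381, 200.1 and 248 CPM and did not pass (log2 fold change 0.97, SE 0.30, edgeR adjusted p = 0.134), and neither did Myc (log2 fold change -0.66, SE 0.19, edgeR adjusted p = 0.121). Of 19 cell cycle brakes, 1 was called higher and 0 lower: Rbl2, the pocket protein p130 of resting cells, at 56.96, 54.1 and 55.8 CPM in PBS and 83.6, 93.9 and 83.8 CPM in vesicle (log2 fold change 0.67, SE 0.11, edgeR adjusted p = 0.0444). At an unadjusted p under 0.05, edgeR had 5 of the 13 G1 entry genes and 5 of the 19 brakes, against 25.4% of all genes tested. DESeq2 called 3 and 2 of them, and limma-voom 0 and 1. Of all genes, edgeR called 3.7%, DESeq2 15.1% and limma-voom 2.92%. The groups did not overlap for Cdk4 or Rbl2, as for 45.9% of all genes tested. Both calls depended on the libraries and on the processing: over 14 alternatives, which leave out a library or change the tool, scaling, filter or model, the edgeR, DESeq2 or limma-voom adjusted p of Cdk4 ran from 3.32e-05 to 0.176 and passed in 6, and that of Rbl2 from 6.07e-05 to 0.171 and passed in 8. Without vesicle replicate 2 they were 0.120 and 0.105 in edgeR.

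Markers of dividing marrow precursors also varied between the libraries, and their part in the cell cycle values was not tested. The 14 erythroid markers in the table summed to 2500.0, 3275 and 3368 CPM in PBS and 2548, 20966 and 14372 CPM in vesicle. Hba-a1, an alpha globin gene that circulating red cells also carry, made up 83.6% of that sum, so the 11 markers without globin were summed too, a choice made after the values were seen. They gave 157, 48.7 and 44.3 CPM in PBS and 121, 1898 and 881 CPM in vesicle, with Slc4a1, the band 3 anion exchanger, as the most abundant gene. Thus vesicle replicates 2 and 3, which were highest in the cell cycle genes, were highest in red cell precursor markers too, and all 11 of these markers peaked in replicate 2. EdgeR called 0 of the 14 erythroid markers in either direction, with 3 at an unadjusted p under 0.05, against 25.4% of all genes tested. DESeq2 called 5 and limma-voom 0, against 15.1% and 2.92% of all genes, so these calls depended on the tool. They depended on the libraries too: without vesicle replicate 1, edgeR called 2 of them higher, Hba-a3 and Alas2. It called 113 of all 15363 genes in that fit. All 14 markers then had an unadjusted p under 0.05 in edgeR, against 26.02% of all genes. In 13 of the 14, vesicle replicate 1 was below replicates 2 and 3. Leaving it out raises their vesicle mean by construction, so these counts are no support for a group difference. With all libraries, the 3 lowest p belonged to Hba-a3 (log2 fold change 2.68, SE 0.90, edgeR adjusted p = 0.152), Alas2, which starts haem synthesis (log2 fold change 2.64, SE 0.99, edgeR adjusted p = 0.181), and Tal1, a factor of blood formation (log2 fold change 2.10, SE 0.82, edgeR adjusted p = 0.196). None of the erythroid markers was at 0 in all libraries.

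The 7 granulocyte precursor markers summed to 90.2, 2.61 and 3.34 CPM in PBS and 39.7, 278 and 364 CPM in vesicle. Mpo, the myeloperoxidase of promyelocytes, was their most abundant gene, at 32.7, 0.456 and 0.742 CPM in PBS and 21.9, 138 and 185 CPM in vesicle (log2 fold change 2.84, SE 1.67, edgeR adjusted p = 0.339). Late granulocyte markers, led by S100a9, summed to 1232, 486 and 478 CPM and 311, 3053 and 4092 CPM, and 13 markers of B cells and their precursors, led by Ebf1, to 133, 50.3 and 44.2 CPM and 79.3, 148 and 200.5 CPM. EdgeR called 0 markers of these 3 lists. At an unadjusted p under 0.05 there were 0 in both granulocyte lists and 1 in the B cell list, and DESeq2 called 0, 0 and 1, limma-voom 0. Both granulocyte lists and the B cell list were higher in vesicle replicate 3 than in replicate 2, whereas 45 of 47 cell cycle genes and all 11 erythroid markers without globin were higher in replicate 2. Stem and progenitor markers, led by Cd34, which blood vessels also express, summed to 148, 142 and 142 CPM in PBS and 149, 165 and 186 CPM in vesicle, with 0 calls in edgeR, 3 at an unadjusted p under 0.05, 2 called by DESeq2 and 0 by limma-voom. Megakaryocyte markers, led by Pf4, summed to 57.8, 45.2 and 44.4 CPM and 17.7, 66.9 and 60.9 CPM, with 0 calls in edgeR, 3 at an unadjusted p under 0.05, 2 called by DESeq2 and 0 by limma-voom, and Gp1bb was at 0 in all libraries. Of all genes tested, 25.4% had an unadjusted p under 0.05 in edgeR. EdgeR called 3.7% of all genes, DESeq2 15.1% and limma-voom 2.92%.

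The marker lists did not share one order of libraries at the low end. The cell cycle sum of vesicle replicate 1 was 0.732 times that of PBS replicates 2 and 3. On the same side were the sums of the full erythroid list (0.767 times), late granulocyte markers (0.646 times) and megakaryocyte markers (0.396 times). Abundant genes weigh most in these sums: S100a9 made up 33.6% of the late granulocyte sum and Pf4 69.8% of the megakaryocyte sum. Gene by gene, 10 of 14 erythroid, 6 of 9 late granulocyte and 5 of 8 megakaryocyte markers tested were lowest in PBS replicates 2 and 3. Only 1, 3 and 3 of them were lowest in vesicle replicate 1, against 41 of 47 cell cycle genes. Above 1 were granulocyte precursor markers (13.3 times), B cell markers (1.68 times), stem and progenitor markers (1.05 times) and the erythroid markers without globin (2.60 times), so the side of the erythroid sum depends on the globin genes. Within PBS, replicate 1 held 1.42 times the cell cycle sum of replicates 2 and 3, 30.3 times their granulocyte precursor sum, 2.56 times their late granulocyte sum and 2.82 times their B cell sum. For the erythroid markers that ratio was 0.753 with globin genes and 3.37 without them. Granulocyte precursor markers in PBS replicates 2 and 3 were near the floor of 3 counts, with Mpo at 7 and 12 counts, while Mki67 had 726 and 764 counts there. No correlation between these sums is given, because one over 5 distinct samples would be imprecise.

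**Figure D3:**
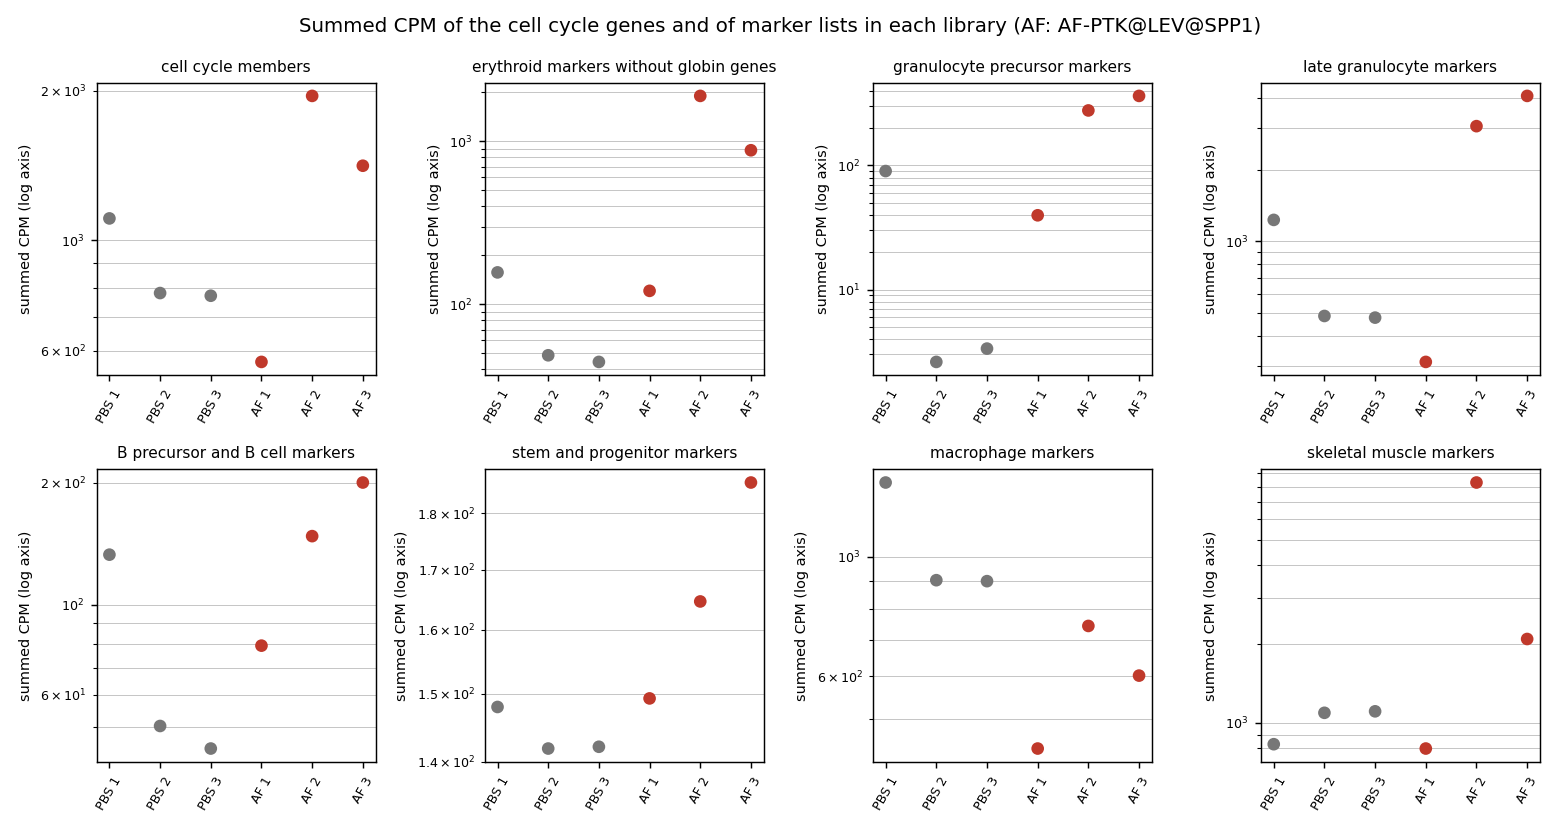
Summed CPM (vertical axis, log scale, a range of its own in each panel) of the cell cycle genes and of 7 marker lists in each library (horizontal axis), PBS in grey and vesicle, written AF, in red; each point is 1 library. The cell cycle sum is lowest in vesicle replicate 1 at 569.5 CPM, where the granulocyte precursor sum of 39.7 CPM exceeds that of PBS replicates 2 and 3.

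Other cells were followed by the same kind of sum, each list with the gene of the highest mean CPM over the 6 libraries. The counts of calls below stand against 3.7% of all genes called by edgeR, 15.1% by DESeq2 and 2.92% by limma-voom. At an unadjusted p under 0.05, edgeR had 25.4% of all genes tested. Macrophage markers, led by Mrc1 (by Csf1r over the 5 distinct samples), summed to 1371, 904 and 901 CPM in PBS and 441, 744 and 602 CPM in vesicle, with 2 of 11 called lower (Cd14 and Cd68), and osteoclast markers, led by Ctsk, to 5472, 3435 and 3445 CPM in PBS and 809.6, 736 and 475 CPM in vesicle, with 4 of 6 called lower. Of 7 T cell markers, led by Cd2, 2 were called lower, and their sum was 22.9, 23.4 and 21.8 CPM in PBS and 8.18, 9.95 and 10.4 CPM in vesicle. In vesicle replicate 1, the library lowest in the cell cycle genes, the nucleus pulposus markers, led by Cd24, were highest, with 768, 327 and 320.5 CPM in PBS and 4161, 1475 and 1755 CPM in vesicle and 0 calls. Vesicle replicate 2, the library highest in the cell cycle genes, also held the highest sums of skeletal muscle markers (828, 1092 and 1107 CPM in PBS and 797, 8299.7 and 2092 CPM in vesicle, led by Acta1) and of adipocyte markers (168, 17.9 and 17.5 CPM in PBS and 425, 839 and 298 CPM in vesicle, led by Adipoq), with 0 calls in each. Cartilage markers, led by Col2a1, summed to 20243, 31288 and 31147 CPM in PBS and 39446, 27679 and 44750.3 CPM in vesicle, with 1 of 8 called higher (Chad), and annulus markers, led by Col1a1, to 60151, 86049 and 86850.4 CPM in PBS and 116578, 83061 and 100320.0 CPM in vesicle, with 0 calls. Bone markers, led by Ibsp, endothelial markers, led by Pecam1, and epidermis markers, led by Dsg3, had 0 calls, with sums of 4751, 1862 and 1861 CPM in PBS and 2186, 3130.3 and 1821 CPM in vesicle, of 597, 713 and 698 CPM in PBS and 431, 502 and 509 CPM in vesicle, and of 11.7, 17.1 and 14.8 CPM in PBS and 11.3, 13.1 and 13.1 CPM in vesicle. Where edgeR made 0 calls, DESeq2 called 4 of the nucleus pulposus, 3 of the adipocyte, 2 of the annulus, 3 of the endothelial and 0 of the muscle, bone and epidermis markers, and limma-voom 0. In the same order, edgeR had at an unadjusted p under 0.05 4, 3, 1, 4 and 0. For the macrophage, osteoclast, T cell and cartilage lists, DESeq2 called 4 of 11, 5 of 6, 4 of 7 and 2 of 8. Limma-voom called 2, 3, 2 and 1 of them, and edgeR had 4, 5, 5 and 3 at an unadjusted p under 0.05. Without vesicle replicate 2, and also without replicate 3, edgeR called 0 genes of the whole table, these markers included. Without vesicle replicate 1 it called 1 macrophage and 1 osteoclast marker lower and 0 T cell and cartilage markers, against 113 of all 15363 genes. Not every marker list that was summed is given here, and the part of these cells in the cell cycle values was not tested.

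Cell cycle genes share promoter sequences that the choice of the genes did not use. Many S-phase promoters hold an E2F element, and many mitotic promoters hold CCAAT boxes, bound by NF-Y, with a cell cycle homology region (CHR). In RefSeq windows of 300 bases, 250 before to 50 after each gene start, 38 of the 48 genes were matched by symbol, with 41 windows since some genes have several starts. CCAAT, on either strand, stood in 30 of them (73.2%), against 37.5% of all 33469 windows. TTTGAA, the CHR, stood in 14 of 24 windows of mitotic genes and 1 of 13 of replication and nucleotide genes, against 18.3% of all. An E2F element, spelled TTTGGCGC, TTTCCCGC or TTTCGCGC on either strand, stood in 7 of 13 replication windows and 1 of 24 mitotic windows, against 1.72% of all. Matches to TTTGGCGC and TTTCGCGC on opposite strands can overlap, as they do in Mcm5. These shares describe letters in a window, not bound sites.

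The 4 windows shown come from replication genes (Mcm5 and Mcm3) and mitotic genes (Cdk1 and Ccnb2) with many matches, where Mcm7 has as many as Mcm3, and Cdca8 and Hmmr as many as Ccnb2, with ties taken in order of the alphabet. Because they were picked for their matches, these windows are examples and no comparison of the 2 kinds of promoter. They are RefSeq sequences of the rat assembly GRCr8, printed 5′ to 3′ on the strand of the gene, with the matched letters in capitals. Mcm5 lies at chr19:13488563-13488862, plus strand, Mcm3 at chr9:30733697-30733996, minus strand, Cdk1 at chr20:19265043-19265342, plus strand, and Ccnb2 at chr8:79981609-79981908, minus strand. Mcm5 and Mcm3 hold CCAAT boxes and E2F elements and no CHR, whereas Cdk1 and Ccnb2 each hold 2 CHR matches and 3 CCAAT boxes, and Cdk1 1 E2F element. Not all windows follow this: that of Mcm2, a replication gene, holds 2 CHR matches and 0 CCAAT boxes. The windows of the mitotic genes Aurka, Bub1, Kif2c and Melk hold 0 matches.
Mcm5: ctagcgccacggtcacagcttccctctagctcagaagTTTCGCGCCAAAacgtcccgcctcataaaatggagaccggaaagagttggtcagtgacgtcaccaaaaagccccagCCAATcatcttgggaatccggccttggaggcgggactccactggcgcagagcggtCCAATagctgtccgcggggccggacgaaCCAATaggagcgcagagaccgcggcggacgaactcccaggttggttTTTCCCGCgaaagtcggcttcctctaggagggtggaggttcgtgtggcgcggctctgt
Mcm3: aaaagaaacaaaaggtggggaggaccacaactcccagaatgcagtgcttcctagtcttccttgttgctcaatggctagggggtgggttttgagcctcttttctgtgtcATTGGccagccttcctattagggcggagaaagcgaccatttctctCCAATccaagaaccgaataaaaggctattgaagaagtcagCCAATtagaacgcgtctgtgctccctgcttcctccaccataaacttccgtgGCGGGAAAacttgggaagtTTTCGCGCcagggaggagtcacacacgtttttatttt
Cdk1: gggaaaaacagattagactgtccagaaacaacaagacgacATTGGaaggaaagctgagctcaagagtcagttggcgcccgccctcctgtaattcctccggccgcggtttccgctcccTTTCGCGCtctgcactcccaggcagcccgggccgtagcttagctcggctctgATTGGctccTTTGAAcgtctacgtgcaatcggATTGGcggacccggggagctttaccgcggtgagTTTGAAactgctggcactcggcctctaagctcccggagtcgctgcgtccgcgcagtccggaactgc
Ccnb2: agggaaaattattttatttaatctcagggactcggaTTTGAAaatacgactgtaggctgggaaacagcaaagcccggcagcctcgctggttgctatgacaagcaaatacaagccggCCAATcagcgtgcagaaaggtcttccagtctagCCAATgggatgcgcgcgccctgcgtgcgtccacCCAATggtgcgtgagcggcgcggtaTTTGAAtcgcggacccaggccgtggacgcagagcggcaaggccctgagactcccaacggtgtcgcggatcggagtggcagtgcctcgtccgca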

How the data were processed

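Gene counts were deposited by the authors as whole-number counts in 1 merged table. Per the submitters' processing notes, FastQC, Trimmomatic, HISAT2, featureCounts and DESeq2 were used, with the mouse build mm10; the table holds rat genes and names no build, so none of its coordinates is given. Library totals ran from 15560728 to 17942989 counts. Counts were tested with edgeR 4.0.16 in R 4.3.3 (TMM, filterByExpr, quasi-likelihood test, Benjamini-Hochberg over all genes tested, adjusted p under 0.05 at any fold change), on 5 distinct samples. Standard errors and 95% intervals come from its F statistic. Log2 levels per library used a prior count of 2. DESeq2 1.42.0 and limma-voom (limma 3.58.1) were alternatives. The script was tested on simulated data. Intervals cover the spread between these samples. Gene members and marker lists were chosen with earlier results of these data known. Genes described in full are, in each of 10 role groups, the one with the highest mean CPM and the one with the lowest edgeR p, plus Mki67, Top2a, Cdk1, Ccnb1, Pcna and Mcm2; from other lists, the highest and up to 3 with the lowest p. Values in single libraries of Mybl2, E2f1, Cdc6, Rrm2, Cenpe, Tk1 and Kif2c, and the mention of Hmgb2, Csf1r and Gadd45a, were added after the values were seen. Of the marker names, 7 were not in the table. Per the methods the rats of a group were separate animals, 3 in each.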

Additional observations from a re-analysis of the deposited data

How the results depend on the processing

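No cell cycle gene passed under any alternative run: with 6 libraries kept separate, DESeq2, limma-voom, RLE size factors, library size alone, no filter on low counts, a robust fit, an absolute log2 fold change above 1, or any library left out, the count was 0, as it was in edgeR on 5 samples. Calls over all genes, 575 by the main test, were 2727 with 6 libraries kept separate, where a near-copy counts as a second animal, and 2493 with DESeq2. Leaving out 1 library moved them between 0 and 566. The median log2 fold change of the cell cycle genes ranged from 0.065 to 0.80 when 1 library was left out, and from 0.30 to 0.53 under the other alternatives. Among the 124 other pathway entries, Cdc45 counted under 2 identifiers, 2 passed in edgeR on 5 samples and 8 with 6 libraries kept separate.

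With the replicate number as a block in a fit of 6 libraries, where PBS replicates 2 and 3 again count as 2 animals, 0 cell cycle genes, 741 of all genes and 2 other pathway genes passed, which were Rbl2 (adjusted p = 0.0491) and Gadd45a (0.0482) and not Cdk4 (0.0592), by edgeR. Without the block, the 6 libraries gave 0.00591, 0.0578 and 0.00827 for these genes, 2727 calls over all genes and 8 in the other pathway lists. With the block, the median log2 fold change of the cell cycle genes was 0.41. Same-numbered libraries had correlations of -0.32, -0.27 and -0.079 in their deviations from the group means, against a mean of 0.10 for different numbers. Deviations from the mean of 3 libraries depend on each other, and PBS replicates 2 and 3 are near-copies. These values therefore cannot decide whether the numbers pair the animals.

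For 14 of the 47 cell cycle genes the fitted log2 fold change took both signs when 1 library was left out, past no threshold: Pcna (-0.25 to 0.089), Rrm2 (-0.021 to 1.00), Ccne2 (-0.066 to 0.25), E2f1 (-0.020 to 0.40), Mybl2 (-0.22 to 0.86), Ccnb1 (-0.13 to 0.80), Cdk1 (-0.18 to 0.39), Aurka (-0.041 to 0.85), Ttk (-0.14 to 0.66), Cdc20 (-0.0070 to 0.80), Cenpf (-0.22 to 0.63), Kif23 (-0.13 to 0.53), Prc1 (-0.57 to 0.11) and Hmmr (-0.22 to 0.17). The other genes described with full statistics kept their sign, over these ranges: Birc5 (0.096 to 0.88), Bub1 (0.20 to 0.75), Ccna2 (0.029 to 0.85), Ccnb2 (0.29 to 1.25), Ccne1 (0.26 to 1.56), Cdca8 (0.019 to 0.62), Cenpa (0.45 to 1.196), Mcm2 (0.14 to 0.75), Mcm3 (0.45 to 1.34), Melk (-0.69 to -0.37), Mki67 (0.94 to 2.12), Rrm1 (0.0090 to 0.48), Top2a (0.21 to 0.97), Tpx2 (0.24 to 1.11), Tyms (0.12 to 0.75) and Ube2c (0.14 to 1.13). The cause was not tested. Foxm1, with under 10 counts in each library, is not among the 47 tested genes.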
